A study of Mus musculus with 6 samples.

Results

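The microtubule-associated proteins (MAPs) and CLASPs described here are the products of 10 genes, Mapt, Map2, Map1a, Map1b, Map4, Map6, Clasp1, Clasp2, Clip1 and Dst. They were taken by symbol from the 52550 genes counted in mouse hippocampus. All 10 had enough reads to be tested for expression. The authors' splicing table lists 101 alternative splicing events for 9 of them and none for Map1b. The samples were hippocampal tissue of male wild-type C57BL/6 J mice that had received adeno-associated virus (AAV) in the CA1 areas of both sides at 8 weeks of age. The virus carried control shRNA in 3 samples, which the labels call wild type. In the other 3 samples it carried L-DL shRNA, meant to lower L-DL, the long form of the RNA-binding splicing regulator hnRNP D-like, which is encoded by Hnrnpdl. The study's methods give a higher titre for the control virus, and the labels call the second group hnRNP DL KD in one field and hnRNP DL-/- in another. The L-DL shRNAs stood under H1 promoters, which act in any cell that takes up the virus, beside a zsGreen reporter under the CamkIIα promoter of excitatory neurons. The study sequenced hippocampal tissue and names no sorting of cells, so cells that took up no virus can be in the libraries as well. How much of the hippocampus was taken is not given.

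Microtubules are hollow polymers of tubulin that carry transport along axons and dendrites. Tau (Mapt) binds mainly along axonal microtubules, MAP2 along those of dendrites, and MAP4 is the relative of both that most cell types use. These proteins bind the tubulin lattice through short repeats, and splicing sets the number of repeats. MAP1A and MAP1B form a second family, MAP6 stabilises microtubules against cold, and dystonin (Dst) is a giant linker between microtubules, actin and intermediate filaments. CLASP1, CLASP2 and CLIP-170 (Clip1) act at growing plus ends, where CLASPs favour rescue of shrinking microtubules.

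The exons that the splicing results turn on are printed here, 5′ to 3′ on the strand of the gene, from GENCODE M21 transcripts on GRCm38. The first set is a 93 nt repeat exon that Map2 and Map4 each hold, shown because these homologous exons were included at very different levels. Capitals mark the 59 bases that are the same in both, an identity of 63.4%.
Map2 exon, chr1:66431527-66431619: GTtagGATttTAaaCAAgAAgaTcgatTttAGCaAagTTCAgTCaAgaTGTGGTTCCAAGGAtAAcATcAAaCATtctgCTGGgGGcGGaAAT
Map4 exon, chr9:110072613-110072705: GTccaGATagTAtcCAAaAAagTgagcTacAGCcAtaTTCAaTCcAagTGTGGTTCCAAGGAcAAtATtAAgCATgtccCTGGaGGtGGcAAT

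The second set holds skipped exons of Dst, Map4, Map6, Clasp1, Clasp2 and Clip1 with an unadjusted p under 0.05 and no overlap of PSI between the groups. Each alternative exon is in capitals between the last 30 bases of the exon before it and the first 30 bases of the exon after it. These neighbours are the ones that the splicing table gives for the event.
Dst 18 nt exon, chr1:34296742-34296759: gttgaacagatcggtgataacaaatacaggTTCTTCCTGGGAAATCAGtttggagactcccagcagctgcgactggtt
Dst 72 nt exon, chr1:34301861-34301932: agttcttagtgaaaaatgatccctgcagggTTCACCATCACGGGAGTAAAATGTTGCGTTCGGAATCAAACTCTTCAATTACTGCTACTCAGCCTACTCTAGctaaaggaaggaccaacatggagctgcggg
Dst 111 nt exon, chr1:34303421-34303531: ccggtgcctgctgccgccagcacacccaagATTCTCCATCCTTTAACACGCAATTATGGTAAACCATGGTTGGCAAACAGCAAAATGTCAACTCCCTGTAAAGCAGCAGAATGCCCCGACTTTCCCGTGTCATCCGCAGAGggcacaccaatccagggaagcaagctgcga
Map4 114 nt exon, chr9:110071026-110071139: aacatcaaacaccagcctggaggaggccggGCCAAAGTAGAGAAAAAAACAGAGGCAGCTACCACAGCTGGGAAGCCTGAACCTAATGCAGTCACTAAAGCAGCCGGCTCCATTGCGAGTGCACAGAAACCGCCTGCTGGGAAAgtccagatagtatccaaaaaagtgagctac
Map6 197 nt exon, chr7:99317472-99317668: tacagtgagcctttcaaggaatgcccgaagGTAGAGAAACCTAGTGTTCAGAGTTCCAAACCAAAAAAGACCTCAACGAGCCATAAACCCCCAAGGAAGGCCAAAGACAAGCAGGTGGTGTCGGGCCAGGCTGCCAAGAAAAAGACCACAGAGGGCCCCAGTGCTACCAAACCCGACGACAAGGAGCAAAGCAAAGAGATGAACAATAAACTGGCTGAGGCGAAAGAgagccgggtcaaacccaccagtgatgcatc
Clasp1 27 nt exon, chr1:118523321-118523347: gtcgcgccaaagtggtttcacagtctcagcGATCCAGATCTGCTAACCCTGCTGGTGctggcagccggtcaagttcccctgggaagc
Clasp2 63 nt exon, chr9:113875265-113875327: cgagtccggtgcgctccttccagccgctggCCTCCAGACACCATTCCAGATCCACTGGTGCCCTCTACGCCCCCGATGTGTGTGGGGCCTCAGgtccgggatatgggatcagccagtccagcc
Clip1 6 nt exon, chr5:123581592-123581597: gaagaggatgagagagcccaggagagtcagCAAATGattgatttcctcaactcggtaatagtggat
Clip1 21 nt exon, chr5:123586334-123586354: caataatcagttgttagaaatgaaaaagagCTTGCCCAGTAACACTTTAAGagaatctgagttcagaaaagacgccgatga

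Gene counts summed to between 16052529 and 16995425 in the controls and between 16525467 and 17913064 in the other group, and the junction counts of all events summed to between 6760349 and 7939931. Summed over all its transcripts, Hnrnpdl was not called in the group labelled L-DL KD, with a log2 fold change of 0.03 (standard error 0.12, Benjamini-Hochberg adjusted p = 0.898 from the quasi-likelihood test of edgeR). These counts do not separate the long form from other transcripts and do not measure protein, so they give no check of the knockdown of L-DL itself. That group is called by its label throughout, and every direction below is from the controls to the L-DL KD-labelled libraries. Of 12 neuronal marker genes, 9 were lower and 2 higher in those libraries. The 12 summed to between 5690 and 6100 CPM in the controls and between 3951 and 4710 CPM in the other group. Here CPM are gene counts scaled to library sizes that were adjusted by TMM. All 10 microglial markers were higher, with sums of 1887 to 2381 CPM and 3678 to 4767 CPM. Of the other lists, all 3 oligodendrocyte precursor markers, 3 of 4 endothelial, 1 of 8 oligodendrocyte and 1 of 6 astrocyte markers were higher, and 3 of 5 CA1, 3 of 5 dentate granule cell and 2 of 6 astrocyte markers were lower. The 3 choroid plexus markers summed to between 26.0 and 4996 CPM over the 6 libraries, with high and low libraries in both groups. No marker was at 0 in all libraries. The part of these markers in the results below was not tested, and in bulk tissue fewer cells of a type and less RNA per cell cannot be told apart.

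Expression of the 10 genes moved in both directions. Dst and Map4 were higher and Map1a, Map2 and Clasp1 were lower in the L-DL KD-labelled libraries at an adjusted p under 0.05, while Mapt, Map6, Map1b, Clasp2 and Clip1 were not called. Of 17621 genes tested, 15.6% were called higher and 15.0% lower. The 2 of 10 called higher are near that share and the 3 of 10 called lower are above it, a difference that was not tested. The 3 control values and the 3 other values did not overlap for 7 of the 10 genes, against 47.2% of all genes tested. The median log2 fold change of the 10 was -0.05, against 0.01 for all genes tested. When libraries were instead scaled to the geometric mean of the 12 neuronal markers, which moved the median of all genes to 0.52, 6 of the 10 were called higher and 0 lower, and Map2, Map1b, Clasp1, Clasp2 and Clip1 turned positive.

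**Figure D1:**
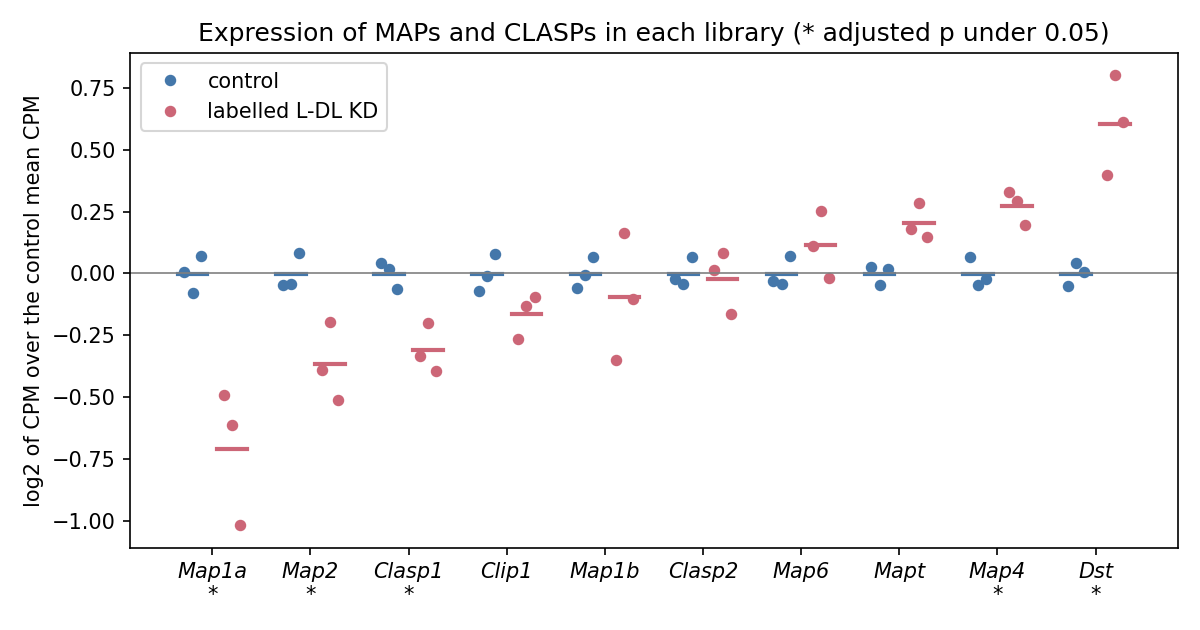
Expression of the 10 genes in each library as the log2 of CPM over the control mean, with 3 points and a mean line for each group and an asterisk for an adjusted p under 0.05. The groups lie apart for Map1a, Map2, Clasp1, Clip1, Mapt, Map4 and Dst, and the L-DL KD-labelled libraries are more spread than the controls for Map1a, Map1b and Dst.

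Map1a (ENSMUSG00000027254, chr2:121289600-121310832), which encodes the MAP1 form of mature neurons, fell most. It had 1204, 1135 and 1258 CPM in control replicates 1 to 3 and 852, 783 and 592 CPM in replicates 1 to 3 labelled L-DL KD. All 3 of the latter lay below every control. The mean was 1199 ± 61.6 CPM (SD, n = 3) against 743 ± 135 CPM (SD, n = 3). This was a decrease of 0.62-fold with a nominal 95% interval from 0.52 to 0.74 (log2 fold change -0.69, standard error 0.13, edgeR adjusted p = 0.0058). The call was kept with each library left out in turn, and under neuronal scaling the log2 fold change was -0.20 with adjusted p = 0.143. Exons of Map1a overlap those of Ppip5k1 on the opposite strand over 272 nt, and without strand such reads cannot be assigned to one of them.

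Its relative Map1b (ENSMUSG00000052727, chr13:99421446-99516540), which is high in growing neurons, was not called. The control values were 1088, 1128 and 1186 CPM and those labelled L-DL KD were 890, 1270 and 1057 CPM, so the second group held both the lowest and the highest value. The log2 fold change was -0.08 (standard error 0.12, edgeR adjusted p = 0.663).

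Map2 (ENSMUSG00000015222, chr1:66175273-66442583), the dendritic MAP, was lower. Control libraries held 869, 873 and 952 CPM, and the L-DL KD-labelled libraries held 685, 785 and 630 CPM. No value of the second group reached the lowest control. The ratio was 0.78 with a nominal 95% interval from 0.69 to 0.89 (log2 fold change -0.36, standard error 0.09, edgeR adjusted p = 0.0221). This call was lost without control replicate 1, 2 or 3, with adjusted p of 0.0617, 0.0590 and 0.0855, and under neuronal scaling the log2 fold change was 0.15.

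Mapt (ENSMUSG00000018411, chr11:104231390-104332090) encodes tau. It had 489, 464 and 486 CPM in the controls and 543, 585 and 531 CPM in the L-DL KD-labelled libraries. The groups did not overlap, with 480 ± 13.5 CPM (SD, n = 3) against 553 ± 27.98 CPM (SD, n = 3). The log2 fold change of 0.21 (standard error 0.07) missed the threshold by a little, with edgeR adjusted p = 0.0522. Over the alternatives the adjusted p ran from 0.0014 to 0.183, and it was 0.0252 with DESeq2, 0.0239 with scaling by library size and 0.0340 among genes with at least 50 counts in all libraries. The 2 libraries whose omission brought it under the threshold were replicates 1 and 3 labelled L-DL KD, with adjusted p of 0.0318 and 0.0361.

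Map4 (ENSMUSG00000032479, chr9:109931460-110083955), the MAP of most cell types, was higher. Its values were 672, 619 and 630 CPM in the controls and 804, 784 and 733 CPM in the L-DL KD-labelled libraries, with every value of the second group above every control. The ratio was 1.21 with a nominal 95% interval from 1.10 to 1.33 (log2 fold change 0.27, standard error 0.07, edgeR adjusted p = 0.0219). The call was lost without any 1 of control replicates 1, 2 and 3 or replicate 2 labelled L-DL KD, with adjusted p of 0.0537, 0.0993, 0.0841 and 0.0502.

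Map6 (ENSMUSG00000055407, chr7:99267447-99337137) had 103, 102 and 110 CPM in the controls and 113, 125 and 104 CPM in the other group. These values overlapped (log2 fold change 0.12, standard error 0.08, edgeR adjusted p = 0.321).

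Dst (ENSMUSG00000026131, chr1:33908225-34308661) rose most. It had 397, 424 and 414 CPM in the controls and 543, 717 and 629 CPM in the L-DL KD-labelled libraries, and the lowest of the latter was well above the highest control. The means were 412 ± 13.6 CPM and 630 ± 87.2 CPM (SD, n = 3 each). The ratio was 1.53 with a nominal 95% interval from 1.33 to 1.76 (log2 fold change 0.61, standard error 0.10, edgeR adjusted p = 0.00359). The call held with each library left out and under every other scaling run, the neuronal one included, where the log2 fold change was 1.14.

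The CLASPs differed from each other. Clasp1 (ENSMUSG00000064302, chr1:118389058-118612678) had 118, 115 and 109 CPM in the controls and 90.6, 99.5 and 86.9 CPM in the L-DL KD-labelled libraries, which all lay lower. Its ratio was 0.81 with a nominal 95% interval from 0.73 to 0.89 (log2 fold change -0.31, standard error 0.07, edgeR adjusted p = 0.0165). Without control replicate 1 or 2 the adjusted p was 0.0656 or 0.0629, and under neuronal scaling the log2 fold change was 0.21. Clasp2 (ENSMUSG00000033392, chr9:113741473-113919682) had 265, 261 and 281 CPM against 272, 284 and 240 CPM. These ranges overlapped, with a log2 fold change of -0.02 (standard error 0.08, edgeR adjusted p = 0.880). The difference between the changes of both CLASPs was not tested.

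Clip1 (ENSMUSG00000049550, chr5:123577795-123684618), which links plus ends to cargo and to dynein's partner dynactin, had 157, 163 and 174 CPM in the controls and 137, 150 and 154 CPM in the L-DL KD-labelled libraries. The groups lay apart by a narrow margin, and the log2 fold change of -0.16 (standard error 0.07) was not called (edgeR adjusted p = 0.135).

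Levels of different genes were compared as CPM per kb of annotated exon, with all exons of a gene merged. On this scale the control order ran Map1a (98.6 ± 5.07), Map1b (71.6 ± 3.12), Mapt (63.7 ± 1.79), Map2 (54.6 ± 2.86), Map4 (42.3 ± 1.82), Clasp2 (17.5 ± 0.71), Clip1 (13.3 ± 0.70), Map6 (11.5 ± 0.50), Dst (10.01 ± 0.33) and Clasp1 (5.23 ± 0.20; SD, n = 3 each). Every pair of neighbours in this order differed by more than their spread, with no shared values between the 3 control libraries of one and of the next. In the L-DL KD-labelled libraries, Mapt stood first at 73.5 ± 3.72, followed by Map1b at 67.7 ± 12.05 and Map1a at 61.0 ± 11.1, where the values of Map1b overlapped those of both others, and Dst moved from the ninth to the seventh place at 15.3 ± 2.12. The order depends on the length used. Divided by the longest transcript, Map2 stood first in the controls at 144 CPM per kb, followed by Map4 at 105 and Map1a at 101.

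**Figure D2:**
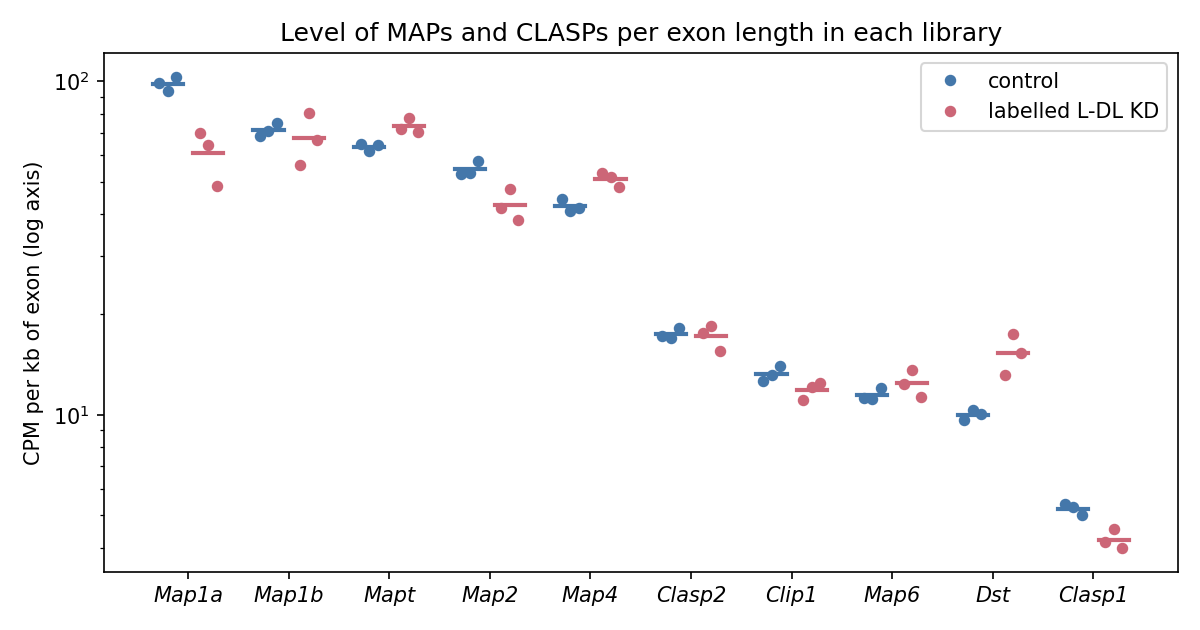
Level of the 10 genes in CPM per kb of merged exon on a log axis, ordered by the control mean, with 3 points and a mean line for each group. Map1a is highest in the controls at 98.6 and Mapt is highest in the L-DL KD-labelled libraries at 73.5, and 5 genes at 17.5 or below form the lower part in the controls.

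Among 91 other microtubule genes of the fixed lists, the 3 whose log2 CPM followed that of Mapt most closely over the 6 libraries were Fyn (Pearson r = 0.976), Dclk1 (0.947) and Slain2 (0.945). Among the 10 genes themselves, r with Mapt was highest for Map4 (0.928) and Dst (0.921) and lowest for Map1a (-0.727). These are descriptions over 6 libraries that fall into 2 groups, so any gene with a shift between the groups gives a large r.

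Splicing was measured as PSI, the share of a gene segment's inclusion among length-adjusted junction counts. Counted once for each event type, the 101 events of the 9 genes cover 87 segments. Of these, 73 events on 64 segments were tested, those whose counts averaged at least 20 per library with 1 or more for either form. Of the 28 events left out, 6 had too few counts and 22 had one form nearly without counts. Tested segments were 45 skipped exons, 10 mutually exclusive exons, 5 alternative 3′ and 4 alternative 5′ splice sites. No retained intron was listed for these genes. Of the 45 skipped exons, 40 had a length that is a multiple of 3.

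No event of the 10 genes passed an adjusted p under 0.05 by edgeR's quasi-likelihood test, which called 0.255% of the 18829 events in the whole table. limma on the log2 ratio of the forms called 0 events in the whole table, so its count for these genes says nothing particular to them. At an unadjusted p under 0.05 there were 16 of the 64 segments, against 13.2% of the 17769 segments tested in the whole table, 8 with a higher and 8 with a lower PSI. PSI of the groups did not overlap for 17 of the 64 segments, 7 higher and 10 lower, against 18.5% in the whole table. Not all of these segments are independent. Both counts hold the Map4 114 nt exon as a skipped and as a mutually exclusive exon. They also hold 759 nt and 711 nt forms of a Mapt exon that share skipping counts. The PSI changes below are therefore measurements that did not pass the test across all events. Each value lists the 3 control libraries and then the 3 L-DL KD-labelled libraries, in the order of the splicing table, which gives no replicate numbers.

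**Figure D3:**
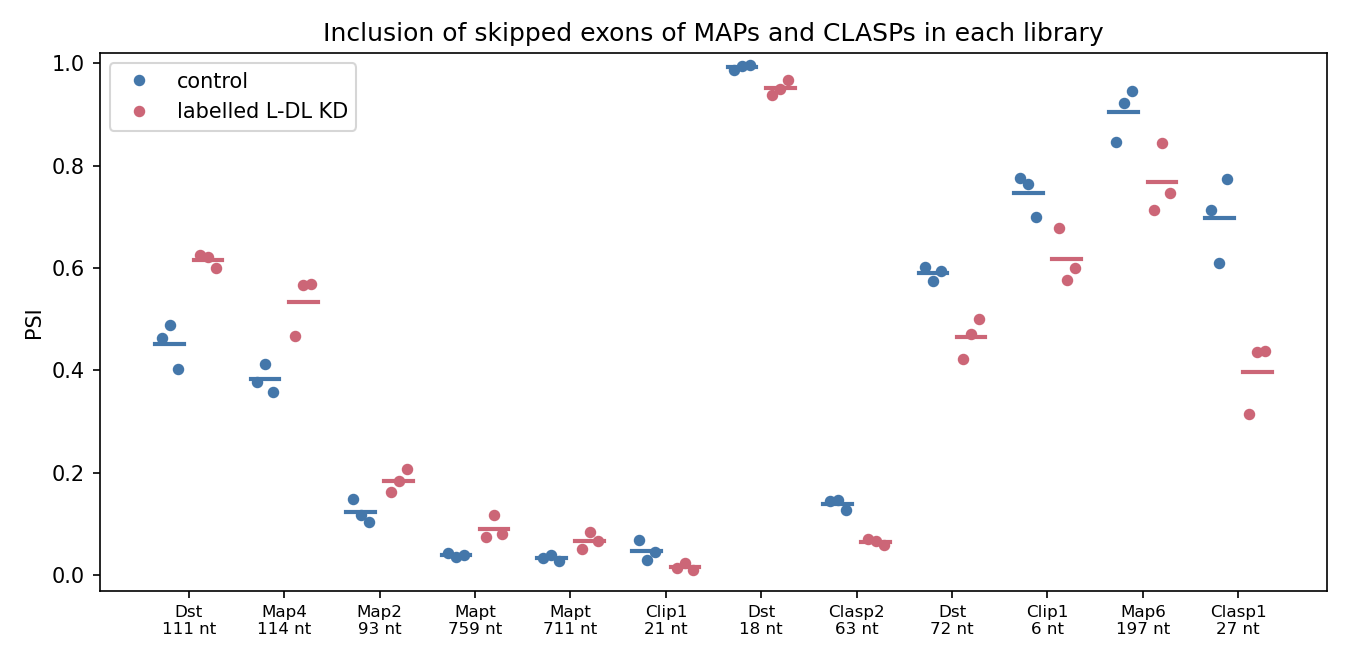
PSI of 12 skipped exons with an unadjusted p under 0.05 and no overlap between groups, in each library, with 3 points and a mean line for each group. The Dst 111 nt, Map4 114 nt, Map2 93 nt and Mapt 759 nt and 711 nt exons lie higher in the L-DL KD-labelled libraries and the other 7 exons lie lower, and none passed the adjusted threshold.

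In tau, exon 4A had the smallest p. This 759 nt exon (exon 5 of Mapt-203, chr11:104298498-104299256) is known from the long tau of peripheral neurons. Its PSI was 0.0441, 0.0350 and 0.0401 in the controls and 0.0749, 0.117 and 0.0807 in the L-DL KD-labelled libraries, at 450 to 751 junction counts per library. The lowest of the latter lay above the highest control, and the means differed by 0.0510 (unadjusted p = 0.0013, edgeR adjusted p = 0.114). A 711 nt form of this exon starts 48 nt later, and those 48 bases are in capitals in the following line, between the end of exon 4 and the next 30 bases.
Mapt exon 4A start: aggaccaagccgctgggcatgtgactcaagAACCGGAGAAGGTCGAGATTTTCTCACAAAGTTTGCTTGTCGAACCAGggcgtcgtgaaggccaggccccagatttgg
PSI of the 711 nt form was 0.0329, 0.0394 and 0.0278 against 0.0510, 0.0840 and 0.0667 (edgeR adjusted p = 0.197), and both forms are set against the same skipping counts. Among transcripts that used either start, inclusion of the 48 nt was 1, 0.432 and 0.812 against 0.768, 0.777 and 0.724 at 12 to 95 counts, with no shift beyond the spread (edgeR adjusted p = 0.918). Without form lengths the PSI change of the 759 nt exon was 0.0895 and that of the 711 nt form 0.0612.

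Exons 2 and 3 of tau add acidic inserts near the N terminus, and tau without either is 0N, with exon 2 alone 1N and with both 2N. PSI of exon 2 (87 nt, chr11:104287123-104287209) was 0.1203, 0.169 and 0.185 against 0.119, 0.135 and 0.144 (edgeR adjusted p = 0.771). Exon 3 (87 nt, chr11:104289908-104289994), counted among transcripts with exon 2, was included at 0.660, 0.592 and 0.444 against 0.475, 0.512 and 0.517 (edgeR adjusted p = 0.824). Counts across junctions from exons 1, 2 and 3 were combined into shares of 0N, 1N and 2N, a measure chosen after PSI values had been seen. The 0N share was 76.9% ± 5.22 in the controls and 78.8% ± 2.49 in the L-DL KD-labelled libraries (SD, n = 3 each, two-sided exact permutation p = 0.7). For 1N it was 10.3% ± 4.15 and 10.6% ± 1.033 (exact p = 0.9), and for 2N 12.8% ± 2.67 and 10.7% ± 1.58 (exact p = 0.3, with 0.1 the smallest that 3 against 3 allow). Groups overlapped for all 3 shares. Exon 2 scored against exon 4 as mutually exclusive exons had PSI of 0.0677, 0.0731 and 0.0710 against 0.0430, 0.0627 and 0.0553, which lay apart (edgeR adjusted p = 0.589).

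Exons 4, 6 and 8 of tau were close to all or none. Exon 4 (66 nt, chr11:104294859-104294924) was at a PSI of 1 in 5 libraries and 0.992 in one labelled L-DL KD, and was not tested. Exon 6 (198 nt, chr11:104305212-104305409) lay between 0.0039 and 0.0197 over all libraries (edgeR adjusted p = 0.985), and its 97 nt shortened form (chr11:104305313-104305409) between 0 and 0.0192 (edgeR adjusted p = 0.728). Use of the upstream start of exon 6 was 0.836, 1 and 0.435 against 0.677, 0.604 and 0.519 at 14 to 39 counts (edgeR adjusted p = 0.803). Exon 8 (54 nt, chr11:104307881-104307934) was included at 0.00977, 0.0225 and 0.0041 against 0.0309, 0.0136 and 0.0252 (edgeR adjusted p = 0.501). A 97 nt exon of Mapt-210 (chr11:104321063-104321159) had inclusion counts in 1 of 6 libraries, where its PSI was 0.00122.

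MAP2 and MAP4 each had a 93 nt repeat exon in their tested events, and its inclusion separated the genes far more than the groups. In Map4 (exon 15 of Map4-201) PSI was 0.632, 0.733 and 0.680 against 0.715, 0.724 and 0.679 (edgeR adjusted p = 0.879), a value named after it was seen, for its homology. This is the event on the Map4 exon with the most counts. In the other 2 events, scored with a different neighbouring exon on one side, PSI was 0.966 to 1 and 0.974 to 1, so the inclusion level depends on the neighbours used. In Map2 (exon 12 of Map2-206) PSI was 0.149, 0.117 and 0.104 against 0.163, 0.184 and 0.207, at 306 to 476 counts. All 3 Map2 values of the second group lay above the controls, with a difference of means of 0.0614 (unadjusted p = 0.0369, edgeR adjusted p = 0.353). Inclusion was higher in Map4 than in Map2 in all 6 libraries in each of these events. The bases that differ between these exons are in lower case in the sequences above.

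**Figure D4:**
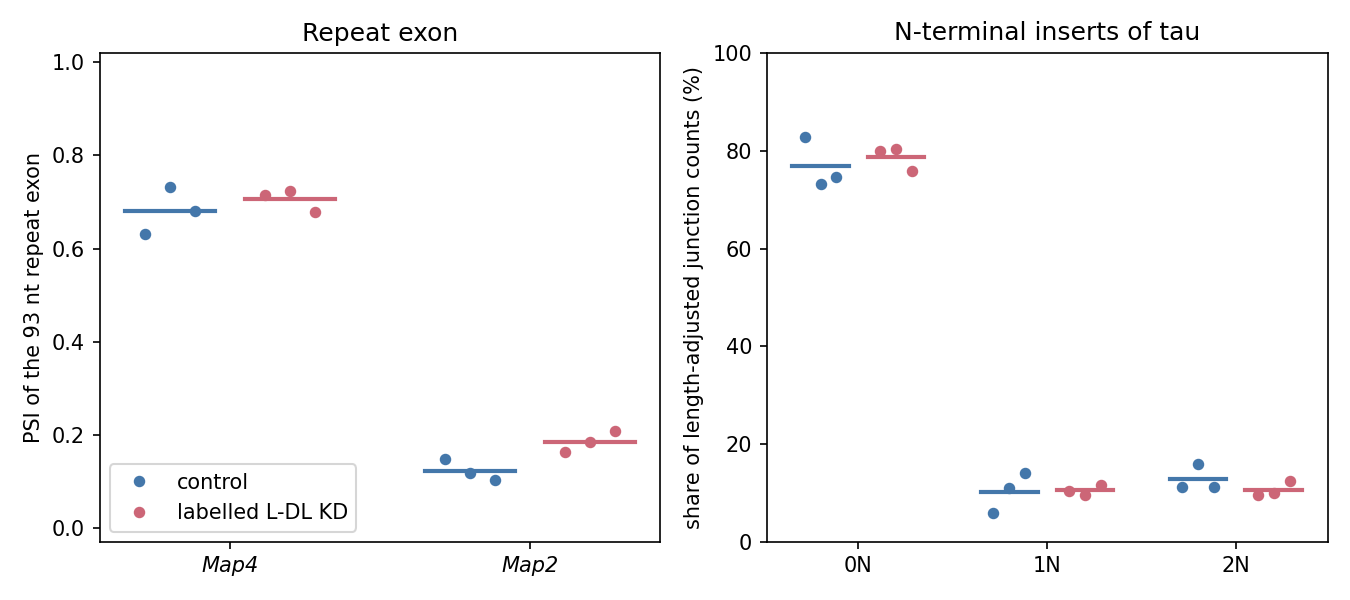
Left, PSI of the 93 nt repeat exon of Map4 (the event with the most counts) and Map2 in each library, and right, the shares of tau junction counts for 0N, 1N and 2N in percent, with 3 points and a mean line for each group. In these events the repeat exon is near 0.7 in Map4 and under 0.21 in Map2, and 0N is the main tau form with 76.9% and 78.8%.

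In Map4 the 114 nt exon just upstream of the repeat exon (exon 14 of Map4-201, 38 codons) lay higher in PSI. It was 0.377, 0.413 and 0.358 in the controls and 0.467, 0.567 and 0.568 in the L-DL KD-labelled libraries, without overlap, at 226 to 476 counts. The difference of the means was 0.151 (unadjusted p = 0.0117, edgeR adjusted p = 0.247). Scored as mutually exclusive with the 93 nt exon, the 114 nt exon had 0.168, 0.176 and 0.163 against 0.213, 0.272 and 0.234 (unadjusted p = 0.0444). For the 93 nt exon downstream the means differed by 0.0244, less than its control SD of 0.0505.

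The 197 nt exon 3 of Map6-201 (chr7:99317472-99317668), the only segment of Map6, is not a multiple of 3. Its PSI was 0.846, 0.923 and 0.945 against 0.713, 0.843 and 0.746, and the highest value labelled L-DL KD lay just under the lowest control. The difference of the means was -0.137 (unadjusted p = 0.0103, edgeR adjusted p = 0.238). A second event on this exon, scored with a different downstream exon at 106 to 196 counts, had PSI of 1, 0.984 and 1 against 1, 1 and 1 and was not tested. The lower PSI was therefore seen in 1 of the 2 events. In Map1a the 141 nt exon 4 of Map1a-201 (chr2:121298906-121299046) stayed between 0.981 and 1 (edgeR adjusted p = 0.723), so its events left little room for a change.

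Dst held the smallest p of the 10 genes, and its 3 segments with the smallest p lay within the last 7 of the 103 exons of Dst-211. The 18 nt exon (exon 97) had PSI of 0.987, 0.994 and 0.996 in the controls and 0.938, 0.949 and 0.968 in the L-DL KD-labelled libraries, at 284 to 445 counts. Few of these were skipping counts, with 4, 2 and 1 against 25, 20 and 12. The groups lay apart with a difference of means of -0.0410 (unadjusted p = 0.00054, edgeR adjusted p = 0.0803, from 0.0721 to 0.303 over the alternatives). It was the only member event at an unadjusted p under 0.001, which 185 of the 18829 events in the table reached.
The 72 nt exon (exon 99) went the same way, with 0.602, 0.574 and 0.595 against 0.423, 0.471 and 0.501 at 466 to 713 counts (unadjusted p = 0.0113, edgeR adjusted p = 0.245). The 111 nt exon (exon 101) went the other way, with 0.464, 0.488 and 0.403 against 0.625, 0.622 and 0.6002 at 378 to 628 counts (unadjusted p = 0.00278, edgeR adjusted p = 0.141). Neither of these exons had overlapping groups. Further upstream, the 327 nt exon 65 (chr1:34249804-34250130) had 0.360, 0.312 and 0.401 against 0.547, 0.556 and 0.395, where 1 library of the second group stayed within the controls (unadjusted p = 0.0476). Dst expression itself was higher in the same libraries, as were markers of microglia, endothelial cells and oligodendrocyte precursors, and the part of a changed cell mixture in these PSI values was not tested.

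Clasp1 and Clasp2 hold many short skipped exons. In Clasp1 the 27 nt exon (exon 22 of Clasp1-218) had PSI of 0.713, 0.610 and 0.773 against 0.314, 0.436 and 0.438. This was the largest difference of means of any tested segment of the 10 genes, -0.302, and the groups lay apart, but only 23 to 51 counts per library stood behind it (unadjusted p = 0.0212, edgeR adjusted p = 0.301). Other short Clasp1 exons overlapped between the groups. They were a 48 nt exon (chr1:118512175-118512222, mean PSI 0.0347 and 0.106), a 24 nt exon (chr1:118512705-118512728, 0.348 and 0.215) and a second 24 nt exon (chr1:118541675-118541698, 0.706 and 0.548), with edgeR adjusted p of 0.641, 0.635 and 0.655.

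In Clasp2 the 63 nt exon (exon 18 of Clasp2-202) had PSI of 0.145, 0.147 and 0.127 against 0.0703, 0.0660 and 0.0582 at 174 to 242 counts. These values lay apart with a small spread in each group (unadjusted p = 0.00703, edgeR adjusted p = 0.205). The 24 nt exon 21 of Clasp2-207 (chr9:113878750-113878773) had 0.6002, 0.646 and 0.630 against 0.570, 0.558 and 0.524, also apart, with edgeR adjusted p = 0.655. This exon and the second 24 nt exon of Clasp1 are alike in sequence, with 17 of 24 bases the same, which are in capitals here.
Clasp1 24 nt exon, chr1:118541675-118541698: CTgTTAGGAGACgccaGGAgcAAG
Clasp2 24 nt exon, chr9:113878750-113878773: CTcTTAGGAGACatacGGActAAG
Their mean PSI was 0.706 and 0.625 in the controls and 0.548 and 0.550 in the L-DL KD-labelled libraries, with neither difference past the test. The other short Clasp2 exons overlapped between the groups. They were a 24 nt exon (chr9:113858581-113858604, mean PSI 0.843 and 0.786), an 18 nt exon (chr9:113860120-113860137, 0.864 and 0.854), a 27 nt exon (chr9:113862436-113862462, 0.0326 and 0.0184) and a 3 nt exon (chr9:113887045-113887047, 0.174 and 0.225), with edgeR adjusted p between 0.684 and 0.974. A second event on each of the first 2, with fewer counts and a different neighbouring exon on one side, gave mean PSI of 0.461 and 0.361 for the 24 nt exon and 0.527 and 0.428 for the 18 nt exon, so these levels depend on the event used (edgeR adjusted p = 0.793 and 0.831).

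Clip1 had a 6 nt exon (exon 24 of Clip1-202) with PSI of 0.775, 0.765 and 0.699 against 0.679, 0.576 and 0.5998, and a 21 nt exon (exon 20) with 0.0680, 0.0289 and 0.0454 against 0.0134, 0.0239 and 0.00929. Both lay lower without overlap (unadjusted p = 0.0409 and 0.0262, edgeR adjusted p = 0.359 and 0.318). The 21 nt exon rests on few inclusion counts, 12, 5 and 9 against 2, 5 and 2. A 33 nt exon (exon 8 of Clip1-201, chr5:123638956-123638988) overlapped, with mean PSI of 0.0584 and 0.0905 (edgeR adjusted p = 0.818).

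Over the 13 tested skipped exons of 51 nt or less, all with a length that is a multiple of 3, mean PSI was lower in the L-DL KD-labelled libraries for 10 and higher for 3, with a median change of -0.0410. Of the 1283 tested skipped exons of this size in the whole table, 882 were lower and 401 higher, with a median change of -0.0223. The groups lay apart for 5 of the 13 and for 418 of the 1283.

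The other genes of the microtubule system were taken from 7 lists with 91 genes, all tested. Of these, 17 were higher and 34 lower in the L-DL KD-labelled libraries, with a median log2 fold change of -0.19 against 0.01 for all genes. Of all genes tested, 15.6% were called higher and 15.0% lower, the background for the counts of each list here. Under neuronal scaling these counts were 42 and 4, so the directions given here are relative to all genes.
Tubulins moved both ways, with 5 of 13 higher and 3 lower. Tubb6 rose most (log2 fold change 0.82, standard error 0.21, edgeR adjusted p = 0.0197), and Tuba8 fell most (log2 fold change -1.37, standard error 0.18, edgeR adjusted p = 0.0012). Of 15 other lattice-binding proteins 3 were higher, led by the kinase Dclk1 (0.39), and 5 lower, led by the tubulin polymerisation factor Tppp (-0.82). Of 13 other plus-end proteins 3 were higher, led by Mapre1 (0.69), which encodes the plus-end protein EB1 that recruits CLASPs and CLIP-170, and 2 lower, led by Clip2 (-0.51). Of 12 depolymerising and severing proteins 1 was higher and 4 lower, with Stmn4 at 0.97 and Stmn2 at -0.56. Tubulin-modifying enzymes had 3 of 9 higher and 2 lower, with the detyrosinating enzyme Vash1 at 0.999 and the tubulin tyrosine ligase Ttl at -1.03.

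Kinases, phosphatases and motors were mostly lower. Of 17 genes for kinases and phosphatases of tau and other MAPs, 11 were lower and 2 higher, with a median of -0.29. The largest fall was in Cdk5r2 (log2 fold change -0.86, standard error 0.20, edgeR adjusted p = 0.0132), which activates the tau kinase CDK5, and the largest rise in Ppp2r2a (0.36), a subunit of the tau phosphatase PP2A. Of 12 motor genes 7 were lower and 0 higher, with a median of -0.26. Kif5a, a neuronal kinesin, had the largest fall, from 2383 ± 47.1 CPM to 1288 ± 134 CPM (SD, n = 3 each, log2 fold change -0.89, edgeR adjusted p = 0.000422). Neuronal markers were lower in the same libraries.

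**Figure D5:**
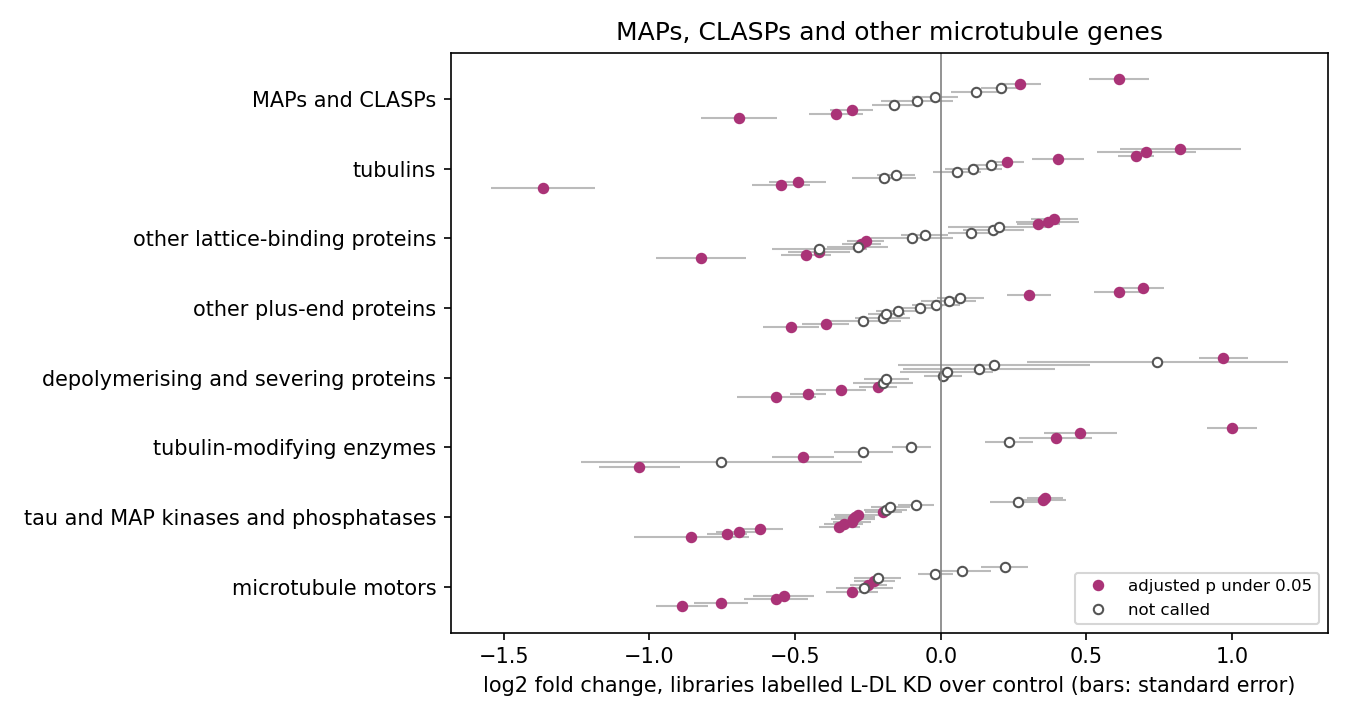
Log2 fold changes of the 10 MAP and CLASP genes and of 91 other microtubule genes in 7 lists, with bars for the standard error, filled points for an adjusted p under 0.05 and open points for genes not called. Filled points lie on both sides of 0 for tubulins and for the 10 genes, and the 7 filled motor genes all lie below 0.

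In these other lists, 3 of 218 tested segments were called and 41 were at an unadjusted p under 0.05, of which 14 were higher and 27 lower. Over all genes, 0.255% of events were called and 13.2% of segments were at an unadjusted p under 0.05. The 3 called, named after their values were seen, were exons of Camk2a, Dctn1 and Dync1h1. The 15 nt exon of Dctn1 (chr6:83197319-83197333), whose product dynactin is a partner of CLIP-170, had PSI of 0.856, 0.852 and 0.852 against 0.710, 0.645 and 0.585 (edgeR adjusted p = 0.0437). A 33 nt exon of Camk2a was at 0.0316 ± 0.0013 against 0.0918 ± 0.0186 (SD, n = 3 each, edgeR adjusted p = 0.0186). The 154 nt exon of Dync1h1 was at 1 in every control and at 0.980, 0.957 and 0.924 in the L-DL KD-labelled libraries (edgeR adjusted p = 0.0496).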

How the data were processed

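RNA of 3 control samples of hippocampal tissue and 3 labelled L-DL KD was used. Per Ensembl gene, the authors deposited raw counts of reads that were not normalized. For each event, the authors deposited rMATS junction counts of the inclusion and skipping form of each event with the effective lengths of the forms. Read pairs were aligned to GRCm38. The submitters' processing notes name Bowtie 1.1.2, HISAT2 2.1.0 and HTSeq 0.6.1, with no role given. Whether counting used strand is not given in the sources used here. The splicing table also holds the authors' own PSI, PSI difference, p-value and FDR columns, which were not used. Its first sample was read as L-DL KD and its second as control, following the order of rMATS and the study's PSI difference. Over 6809 genes, group log2 ratios of junction counts and of gene counts under this reading had r = 0.924.

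Gene counts were scaled by TMM, and genes that reached 10 counts in 3 or more libraries were tested with edgeR (version 4.0.16) by its quasi-likelihood test, with Benjamini-Hochberg adjustment over all genes and a threshold of 0.05. CPM are TMM-scaled. Confidence intervals of ratios are nominal 95% intervals from the standard error by a normal approximation. They are narrower than the quasi-likelihood test implies. For Clip1 such an interval ran from 0.81 to 0.99 and left out 1, at an unadjusted edgeR p of 0.0588. Events were tested by edgeR on 12 columns of counts, 2 for each library, with library effects, an inclusion effect and its change between groups, adjusted over all events whose counts averaged at least 20, and at least 1 for either form. PSI is the inclusion count over its form length, divided by the sum of this for both forms. Work was done in R (version 4.3.3) with limma (version 3.58.1) and DESeq2 (version 1.42.0), and in Python (version 3.11.15) with pandas (version 2.3.3) and scipy (version 1.17.1). The gene and event models were checked on simulated counts. Labels do not say that replicates came from separate mice, so p-values measure the spread between libraries.

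The genes and lists were chosen with earlier results of these data known. Named events were all Mapt segments with a mean of at least 20 counts, the segment of each gene with the smallest p, those with an unadjusted p under 0.01 and tested skipped exons of 51 nt or less. Events of the same type on the same segment were counted once, so an exon scored under different types counts once for each. A result that this rule would name is not reported here. In each list the called genes with the largest rise and fall were named. Other segments at an unadjusted p under 0.05 were named after their values were seen. Alternatives were other scalings, filters and tests, a replicate block, PSI without form lengths, another gene length and leaving out each library.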

Additional observations from a re-analysis of the deposited data

How the results depend on the processing

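The number of the 10 genes called higher was 2 and called lower 3, and both stayed within 1.5 times of this under DESeq2's size factors or test, library size scaling and both other filters. Under neuronal marker scaling they were 6 and 0, and those of the 91 other microtubule genes were 42 and 4. Without 1 library in turn, 1 to 3 of the 10 were called higher and 1 to 3 lower. Deviations of same-numbered libraries from their group means had r of 0.07, 0.18 and -0.16, within the range of -0.26 to 0.19 of the other pairs. With 3 libraries in each group these values cannot show whether the libraries were paired. The fit with a replicate block called 2 genes higher and 3 lower. Directions turned under neuronal scaling for Map2 (log2 fold change 0.15), Map1b (0.45), Clasp1 (0.21), Clasp2 (0.49) and Clip1 (0.36), for Clasp2 under library size scaling (0.012). With 1 library left out in turn, Map1b ran from -0.21 to 0.040 and Clasp2 from -0.064 to 0.051. Their cause was not tested.

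Events called at an adjusted p under 0.05 numbered 0 under every alternative run, and 1 at an unadjusted p under 0.001. At an unadjusted p under 0.05 there were 16 events, 9 by limma and 8 to 14 without 1 library, with 8 when the control in the third position was left out. Inclusion turned direction for 4 segments that were never called. On the scale of log2 inclusion odds and with 1 library left out in turn, the first 24 nt exon of Clasp2 ran from -1.14 to 0.24, its 18 nt exon from -1.07 to 0.84, tau exon 6 from -0.46 to 0.56 and the 48 nt start of tau exon 4A from -1.22 to 1.06, and the last was -0.33 by limma. No paired analysis was possible for events because their columns carry no replicate numbers. Without form lengths the PSI change of the Clasp2 63 nt exon was -0.0970. That of the Map6 197 nt exon was -0.0819, against -0.137 with form lengths. Exons with 20 to 50 junction counts per library, such as the 27 nt exon of Clasp1, rest on few counts, and the part of depth in the missing calls was not tested.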

Other observations

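Tested alternative splice sites of the 10 genes that no comparison above used include an alternative 5′ splice site of Clip1 (228 nt, chr5:123630225-123630452). Its PSI was 0.184, 0.137 and 0.147 in the controls and 0.412, 0.396 and 0.177 in the libraries labelled L-DL KD, where 1 library lay within the control range (unadjusted p = 0.037, edgeR adjusted p = 0.353). A second event on this segment, with fewer counts, had PSI of 0.660, 0.754 and 0.654 against 0.887, 0.711 and 0.747. There the groups overlapped (edgeR adjusted p = 0.770), so the level depends on the event used. A pair of exons of Map4 scored as mutually exclusive (69 nt, chr9:109999772-109999840, and 123 nt, chr9:110026101-110026223) had PSI of the first exon of 0.760, 0.746 and 0.719 against 0.642, 0.683 and 0.635, without overlap (unadjusted p = 0.0441, edgeR adjusted p = 0.368). Both exons were included almost always when scored as skipped exons.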
